A study of Mus musculus with 34 samples.

Results

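Islets of mice given streptozotocin (STZ) were set against islets of mice given diphtheria toxin (DT), both on the diet labelled SD and both labelled 10WPA, a time of 10 weeks. The 8 libraries are 8 of the 34 in the series and were chosen by their titles, 4 labelled STZ 75mg/kg SD (STZ SD) and 4 labelled DT SD. All animals carry the same genotype, RIP-DTR HTZ, a transgene that puts a toxin receptor under control of the rat insulin promoter, so the STZ mice and the untreated mice carry it too. Untreated mice of that genotype on SD at 10 weeks (CTRL SD, 3 libraries) serve here for orientation, as do STZ HFD (4 libraries) and DT HFD (3 libraries), the same treatments on a diet labelled HFD. The series followed the molecular response of islets to a partial loss of beta cells, and this comparison sets the 2 means of ablation side by side. The labels give no age, do not say how DT was dosed, and do not say that replicates are separate animals. The p-values therefore measure the spread between libraries, estimated over the 33 libraries that have a group.

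Both agents kill beta cells by different routes. STZ is a glucose analogue that enters through the transporter Slc2a2 and alkylates DNA, whereas DT enters only cells with a receptor and blocks protein synthesis. Islets are innervated by sympathetic, parasympathetic and sensory fibres, receive signals from local ganglia, and hold vascular, stromal and immune cells beside the endocrine ones. Beta cells devote much of their endoplasmic reticulum (ER) to folding and exporting proinsulin.

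The 8 libraries held 12246402 to 16080210 counts in STZ SD and 14221668 to 17889676 in DT SD. The islet label held in each: summed CPM (counts per 1000000 of the TMM-scaled library size) of 19 beta-cell markers reached 63916 to 196400 in STZ SD and 234140 to 256650 in DT SD. All 11 SD libraries had Xist (564 to 2189 CPM), and none had more than 1 count of any of 4 Y-linked genes. STZ SD replicates 1 and 4 stood apart. Markers of enterocytes, the absorptive cells of the gut, summed to 14419 and 24181 CPM in those libraries and to 900 and 1326 CPM in replicates 2 and 3 of STZ SD, against 532 to 1518 CPM in DT SD. Of the 22 markers, 6 had no count in any DT SD library. The first principal component of the 8 libraries took 51.25% of the variance and put replicates 1 and 4 at 125 and 127 and the other 6 between -67.2 and -19.2. Acinar markers ranged from 8929 to 267130 CPM in STZ SD and from 59686 to 259980 CPM in DT SD. Several results below are therefore also given without STZ SD replicates 1 and 4.

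Between STZ SD and DT SD, 451 of 17616 genes differed (2.56%) at an adjusted p below 0.05 in edgeR's quasi-likelihood test with Benjamini-Hochberg adjustment. STZ SD was higher for 380 (2.16%) and lower for 71 (0.403%), and the median log2 fold change of all genes was 0.04. The genes lower in STZ SD held neuropeptides such as Vip, ER folding and protein-export genes such as Calr and Srpr, matrix genes such as Fbn1, and the prolactin receptor Prlr. The genes higher in STZ SD held immediate early genes such as Fos, immunoglobulin segments, Erdr1, and many metabolic genes whose level was high only in replicates 1 and 4. The insulin genes did not pass the test. Below, rose and fell mean higher or lower in STZ SD than in DT SD, not a change from untreated islets. Set against CTRL SD, DT SD was higher for all 71 lower genes, and STZ SD was lower for 65. In 41 of the 71, DT SD lay further from CTRL SD than STZ SD did. STZ SD was above CTRL SD for 366 of the 380 higher genes, and further from it than DT SD in 307. Both groups entered the choice of these genes, so such counts follow in part from it.

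The directions differed in how their genes lay across libraries. All 4 STZ SD libraries lay below all 4 DT SD libraries for 65 of the 71 lower genes, and above them for 173 of the 380 higher genes. Over all genes tested those counts were 755 and 671. The called genes were picked by a test on these libraries, so separate groups and signs kept below follow in part from that choice. For 316 of the 380 higher genes, replicates 1 and 4 of STZ SD both exceeded the other 6 libraries. When only STZ SD replicates 2 and 3 were set against DT SD, 6 genes were higher (0.0333%) and 6 lower (0.0333%) of 18002 tested, with 1743 at an unadjusted p below 0.05. The median log2 fold change of the lower genes was -0.61 with all libraries and -0.59 without replicates 1 and 4, and all 71 kept their sign. For the higher genes it was 1.72 with all libraries and 0.42 without, and 324 of the 379 still tested stayed above 0. The part of the gut RNA in these higher genes was not tested beyond this. Leaving out 1 library at a time left 9, 1254, 1050 and 60 calls without STZ SD replicate 1, 2, 3 or 4, and 4, 20, 4 and 86 without DT SD replicate 1, 2, 3 or 4. Fitted on the 2 groups alone, edgeR called 0 genes, with 2255 at an unadjusted p below 0.05, while the DESeq2 Wald test called 1340. Vip, Erdr1 and Gm21887 were past the threshold in each of the 8 fits that left out 1 library, and no other gene described below as called was. Without STZ SD replicates 1 and 4 together, Erdr1 and Gm21887 kept their call and Vip did not. With the acinar score as a covariate 45 genes were called, among them Vip, Adcyap1, Fkbp2, Pianp, Ifi44l and Hist1h2bk of the genes lower in STZ SD. The calls of Tac1, Grp, Slc5a7, Prlr, Fbn1, Efemp1 and Fndc1 were lost there.

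**Figure D1:**
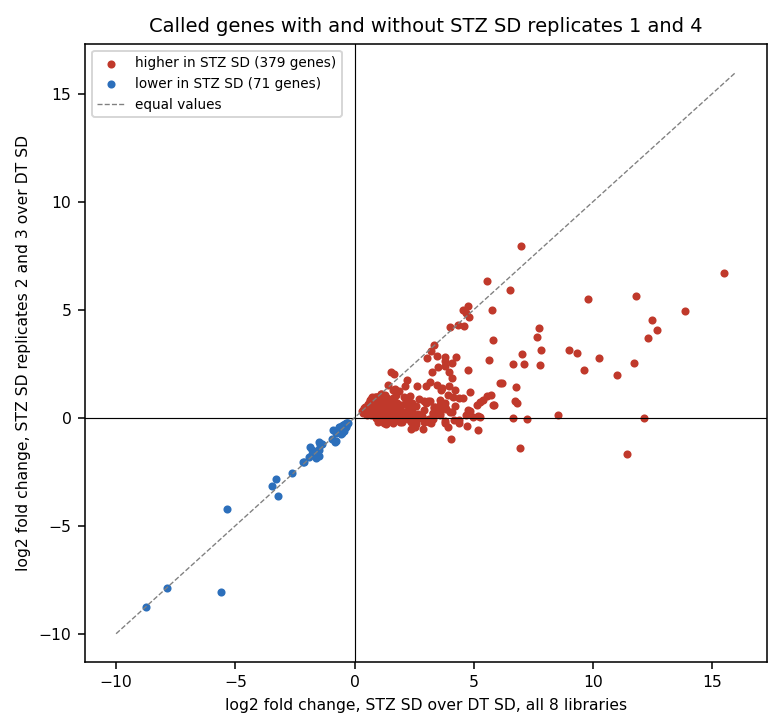
Log2 fold change of STZ SD over DT SD for the genes called, with all 8 libraries (horizontal axis) and with STZ SD replicates 1 and 4 left out (vertical axis); each point is a gene, red for higher and blue for lower in STZ SD. The 71 lower genes lie near the dashed line of equal values, while most of the 379 higher genes lie well under it, with a median of 0.42 on the vertical axis.

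Vip, which encodes vasoactive intestinal peptide (chromosome 10, 5639218 to 5647617 on GRCm38), a transmitter of parasympathetic ganglion cells that stimulates insulin release, was among the genes lower in STZ SD. It stood at 15.9, 17.2, 13.3 and 2.89 CPM in STZ SD replicates 1 to 4, against 109.8, 151.5, 76.0 and 205.3 CPM in DT SD and 26.9, 27.6 and 16.8 CPM in CTRL SD. The groups did not overlap, and the 4 DT SD libraries were also above the 3 CTRL SD libraries. The fitted difference was an 11.04-fold lower level in STZ SD (log2 fold change -3.47, SE 0.57, adjusted p = 0.00839), and -3.15 without replicates 1 and 4. The call held in 14 of 18 other settings, and was lost without replicates 1 and 4 together, with the enterocyte score as a covariate, and in both fits of the 2 groups alone.

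Of the other peptide and transmitter genes, Tac1, Adcyap1, Grp and Slc5a7 fell. Tac1, the precursor of substance P (chromosome 6, 7554879 to 7565834), was at 2.06, 1.29, 0.93 and 0.066 CPM in STZ SD and 8.36, 7.40, 4.04 and 6.96 CPM in DT SD (log2 fold change -2.62, SE 0.67, adjusted p = 0.0382). Adcyap1, which encodes the VIP relative PACAP, had 2 counts in the 4 STZ SD libraries together and 125 in the 4 DT SD libraries, a ratio of STZ SD over DT SD of 0.0167 with an exact 95% interval of 0.00200 to 0.0615 for counting error only (adjusted p = 0.0228). Both genes were low in all libraries, and their groups did not overlap. Grp, the gastrin-releasing peptide of vagal fibres, was at 0.71, 0.28, 1.25 and 0 CPM in STZ SD and 6.96, 4.24, 3.62 and 6.60 CPM in DT SD (log2 fold change -3.30, SE 0.84, adjusted p = 0.037). Slc5a7, the choline transporter of cholinergic terminals, had 3.76, 6.44, 4.26 and 0.72 CPM in STZ SD and 8.11, 14.2, 15.5 and 16.5 CPM in DT SD (log2 fold change -1.85, SE 0.49, adjusted p = 0.0426). In both, every STZ SD library lay below every DT SD library, and in STZ SD the lowest was replicate 4. Without replicates 1 and 4 the log2 fold changes were -2.58 for Tac1, -2.82 for Grp and -1.34 for Slc5a7, and none was called.

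Cartpt and Npy, 2 further peptide genes of autonomic and sensory nerves, did not pass. The log2 fold change of Cartpt was -2.43 (SE 0.77, adjusted p = 0.0765) and that of Npy -1.82 (SE 0.66, adjusted p = 0.117), and neither group pair overlapped. In a list of 22 neuropeptide and transmitter genes that was drawn up after values were seen, 20 were tested, 5 fell (those above), none rose, and the median log2 fold change was -1.20 (-1.30 without replicates 1 and 4, where 0 were called). Of 15 neuron markers, 1 fell (Vip), none rose, and the median was -1.13 (-0.83 without replicates 1 and 4, where 0 were called). All STZ SD libraries lay below all DT SD libraries for 8 of them, against 755 of all 17616 genes. Over all genes 0.403% were called lower. The summed level of the neuron markers was 198 to 294 CPM in STZ SD and 461 to 596 CPM in DT SD, and none of them was at 0 throughout DT SD. Of 10 Schwann cell and glia markers 0 passed, with a median of -0.78 and sums of 118 to 226 CPM in STZ SD and 153 to 238 CPM in DT SD. Whether more nerve tissue in the DT SD preparations has a part in the peptide differences was not tested, and in bulk RNA fewer cells of a type and less RNA per cell cannot be told apart.

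The promoters of 2 of these genes and of 2 ER genes described next are shown, and all 4 hold the motif marked in them. Each is the stretch of 300 bases from 250 before to 50 after the start in the RefSeq table on GRCm38.p6, written on the gene's own strand. For Vip (chr10:5638968-5639267, plus strand) and Tac1 (chr6:7554811-7555110, plus strand), capitals mark TGACG, the core of the cAMP response element, on either strand. For Calr (chr8:84846882-84847181, minus strand) and Pdia6 (chr12:17266339-17266638, plus strand), capitals mark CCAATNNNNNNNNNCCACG, the ER stress response element, on either strand.
Vip: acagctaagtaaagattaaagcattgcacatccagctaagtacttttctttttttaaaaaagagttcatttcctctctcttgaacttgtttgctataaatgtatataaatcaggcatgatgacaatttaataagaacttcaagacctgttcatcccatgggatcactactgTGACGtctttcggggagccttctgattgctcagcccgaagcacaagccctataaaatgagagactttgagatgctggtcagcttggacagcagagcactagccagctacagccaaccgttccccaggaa
Tac1: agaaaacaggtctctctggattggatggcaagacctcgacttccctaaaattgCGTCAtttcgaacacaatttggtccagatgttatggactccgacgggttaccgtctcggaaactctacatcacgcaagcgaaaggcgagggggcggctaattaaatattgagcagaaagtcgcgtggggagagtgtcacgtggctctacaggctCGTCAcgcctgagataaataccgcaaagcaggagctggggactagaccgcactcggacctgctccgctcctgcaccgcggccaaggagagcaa
Calr: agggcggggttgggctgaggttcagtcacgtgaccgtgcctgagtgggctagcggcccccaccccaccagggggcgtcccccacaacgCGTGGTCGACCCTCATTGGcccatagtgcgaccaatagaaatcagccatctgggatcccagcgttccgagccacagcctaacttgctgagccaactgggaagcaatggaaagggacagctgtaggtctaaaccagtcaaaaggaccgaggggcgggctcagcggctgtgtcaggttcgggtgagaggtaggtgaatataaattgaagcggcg
Pdia6: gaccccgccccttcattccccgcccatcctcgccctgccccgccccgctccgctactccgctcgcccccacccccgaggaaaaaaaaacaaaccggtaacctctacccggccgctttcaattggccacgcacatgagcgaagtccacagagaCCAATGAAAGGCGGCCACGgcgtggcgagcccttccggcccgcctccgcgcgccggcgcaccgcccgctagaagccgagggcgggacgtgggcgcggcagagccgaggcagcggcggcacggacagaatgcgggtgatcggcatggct
TGACG occurs in 20.8% of all 32817 promoter stretches of that table, in 25 of the 58 lower genes that have an entry (43.1%) and in 79 of 282 such higher genes (28%). It forms part of the full palindrome TGACGTCA, found in 1.79% of all stretches, in 1 of the 58 lower genes and in none of the 4 shown. Of the other called peptide genes, Adcyap1 had TGACG, and Grp and Slc5a7 were not among the genes with a match. The ER stress element occurs in 0.119% of all stretches, in 2 of the 58 lower genes, Calr and Pdia6, and in 0 of the 282 higher genes. It was found in 0 of the 25 genes with an entry in the list of translocation, signal peptidase and glycosylation genes described below. A gene counts here when any of its stretches matches, so shares of genes and shares of stretches are unlike measures. These matches describe letters in a window and were not tested.

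**Figure D2:**
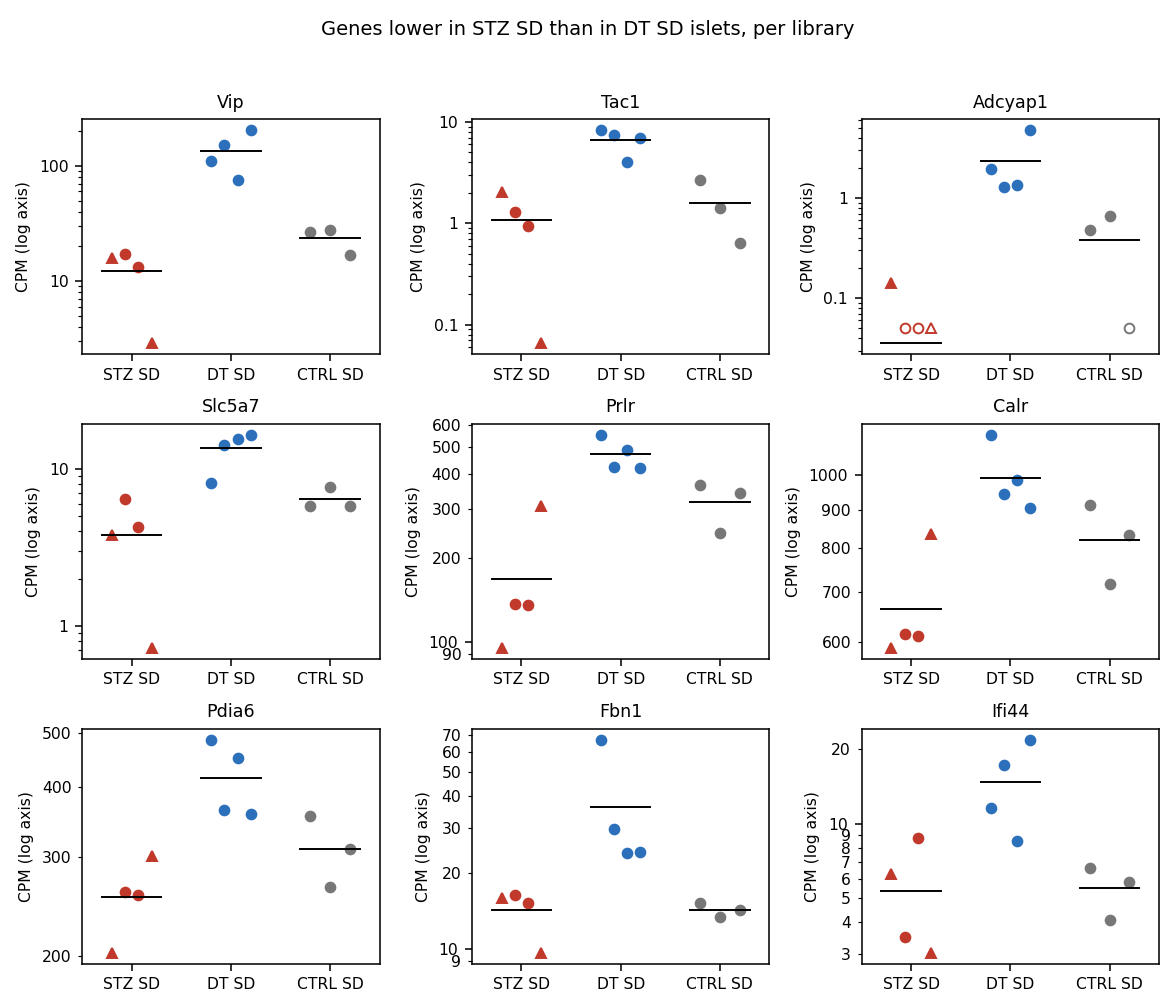
CPM per library on a log axis for 9 genes lower in STZ SD, with STZ SD (red), DT SD (blue) and CTRL SD (grey); lines are group means, triangles are STZ SD replicates 1 and 4, and open symbols are libraries at 0, drawn at 0.05. Vip stands at 2.89 to 17.2 CPM in STZ SD and at 76.0 to 205.3 CPM in DT SD, and in each panel except Ifi44 the 2 groups are separate.

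Some genes of protein folding in the ER were lower in STZ SD than in DT SD. Calr (chromosome 8, 84841850 to 84846934), which encodes the lectin chaperone calreticulin, was at 589, 615, 612 and 836 CPM in STZ SD and 1132, 945, 987 and 904 CPM in DT SD (log2 fold change -0.58, SE 0.15, adjusted p = 0.0388). Pdia6, a disulphide isomerase (chromosome 12, 17266545 to 17284770), was at 203, 261, 257 and 301 CPM in STZ SD and 487, 365, 451 and 359 CPM in DT SD (log2 fold change -0.70, SE 0.16, adjusted p = 0.0299). Neither overlapped, and without replicates 1 and 4 the log2 fold changes were -0.69 and -0.68. Fkbp2, a prolyl isomerase of the ER lumen, fell by 0.79 (SE 0.16, adjusted p = 0.0228), with 66.4 to 86.9 CPM in STZ SD and 121 to 154 CPM in DT SD. Of 20 genes of the unfolded protein response, these first 2 fell, none rose, 19 were below 0, and the median was -0.38. Over all genes 0.403% were called lower. Without replicates 1 and 4, 0 of the 20 were called and the median was -0.46. Against CTRL SD the median of the 20 was -0.15 in STZ SD and 0.23 in DT SD. Hspa5, the chaperone BiP, was at 572 to 976 CPM in STZ SD and 839 to 1184 CPM in DT SD, with a log2 fold change of -0.43 that did not pass (adjusted p = 0.122).

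Of genes that take nascent chains into the ER, 6 also fell. Srpr, the receptor of the signal recognition particle, was at 179, 262, 219 and 295 CPM in STZ SD and 420, 326, 420 and 356 CPM in DT SD (log2 fold change -0.67, SE 0.18, adjusted p = 0.045). The signal peptidase subunits Spcs3 and Spcs2 fell by 0.61 and 0.46 (adjusted p = 0.0304 and 0.0369). The oligosaccharyltransferase subunits Tmem258 and Magt1 fell by 0.65 and 0.61 (adjusted p = 0.0283 and 0.0369). In these 5 genes the groups did not overlap. Srp72, a protein of the signal recognition particle, fell by 0.34 (adjusted p = 0.0482), with STZ SD replicate 4 at 172.6 CPM among the DT SD values of 165 to 196 CPM. Of 32 genes of translocation, signal peptidase and glycosylation, a list drawn up after values were seen, these 6 fell, none rose, 28 were below 0, and 11 had separate groups. Of all 17616 genes, 71 were called lower and 755 had separate groups in that direction. The list median was -0.35 with all libraries and with replicates 2 and 3 alone, where 0 of the 32 were called. Against CTRL SD the list median was -0.07 in STZ SD and 0.20 in DT SD. With the acinar score as a covariate, the calls of Calr, Pdia6 and these 6 genes were lost. The beta-cell markers moved with these genes, at 63916 to 196400 CPM in STZ SD, lowest in replicate 1, and 234140 to 256650 CPM in DT SD, and their part in the ER differences was not tested. In CTRL SD the 3 libraries lay between the group means of STZ SD and DT SD for Calr and Pdia6 (Calr 716 to 913 CPM, Pdia6 266 to 356 CPM).

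Prlr, the prolactin receptor through which beta cells expand in pregnancy (chromosome 15, 10177238 to 10349180), was the 1 gene of the beta-cell list that fell. It had 94.8, 137, 136 and 306 CPM in STZ SD, 555, 426, 490 and 422 CPM in DT SD and 365, 246 and 343 CPM in CTRL SD. STZ SD replicate 4 was closest to DT SD, and the groups did not overlap. STZ SD was 2.81-fold lower (log2 fold change -1.49, SE 0.41, adjusted p = 0.048), the call held in 5 of 18 other settings, and the value was -1.80 without replicates 1 and 4. All 19 beta-cell genes tested had a log2 fold change below 0, with a median of -0.49, and 5 had separate groups. Of all 17616 genes, 0.403% were called lower and 755 had separate groups in that direction.

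The insulin genes lay below DT SD in every STZ SD library without passing the test. Ins1 was at 16796, 47665, 43272 and 49713 CPM in STZ SD, 74649, 66332, 70334 and 64120 CPM in DT SD, and 44613 to 50197 CPM in CTRL SD (log2 fold change -0.81, SE 0.48, adjusted p = 0.364). Ins2 was at 41891 to 132240 CPM in STZ SD, 152040 to 165310 CPM in DT SD and 108320 to 123310 CPM in CTRL SD (log2 fold change -0.67, SE 0.51, adjusted p = 0.49). Of the 2 libraries with gut RNA, STZ SD replicate 1 was the lowest STZ SD library for both genes and replicate 4 the highest. Ucn3, urocortin 3, a marker of mature beta cells, had 92.5, 235, 151 and 275 CPM in STZ SD and 366, 367, 317 and 375 CPM in DT SD, again with separate groups (log2 fold change -0.92, SE 0.41, adjusted p = 0.21). Iapp, amylin, overlapped between groups (log2 fold change -0.52, SE 0.39, adjusted p = 0.483). The gene Mafa, for a transcription factor of mature beta cells, and Slc2a2, the transporter that lets STZ in, had log2 fold changes of -0.05 (SE 0.40, adjusted p = 0.964) and -0.03 (SE 0.40, adjusted p = 0.977), with overlapping groups.

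Hormone genes of the other endocrine cells did not pass either. For Gcg (glucagon) the log2 fold change was -0.18 (SE 0.36, adjusted p = 0.833), and for Sst (somatostatin) 0.17 (SE 0.67, adjusted p = 0.919). Sst was even across STZ SD (4523 to 4983 CPM) and uneven across DT SD (732 to 12110 CPM). Ppy, pancreatic polypeptide, was at 1755, 7016, 8295 and 2189 CPM in STZ SD and at 187, 29.5, 7798 and 170 CPM in DT SD, where replicate 3 alone was high (log2 fold change 1.23, SE 1.48, adjusted p = 0.691). No gene of the alpha-cell list (14 tested) or of the delta-cell list (8 tested) passed, with medians of -0.07 and -0.29. Mki67, a marker of cycling cells, was at 64.8, 19.9, 16.3 and 14.6 CPM in STZ SD and 20.7, 39.5, 6.82 and 33.6 CPM in DT SD, and neither 20 mitosis nor 20 replication genes held a call. Hbegf, which encodes the growth factor whose primate form is the toxin receptor, was at 34.0, 9.93, 10.7 and 16.5 CPM in STZ SD, 13.5, 13.2, 13.5 and 14.6 CPM in DT SD and 90.6 to 115 CPM in CTRL SD. Its difference between STZ SD and DT SD did not pass (log2 fold change 0.38, SE 0.78, adjusted p = 0.83), and whether transgene reads were counted under this gene is not stated in the labels.

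**Figure D3:**
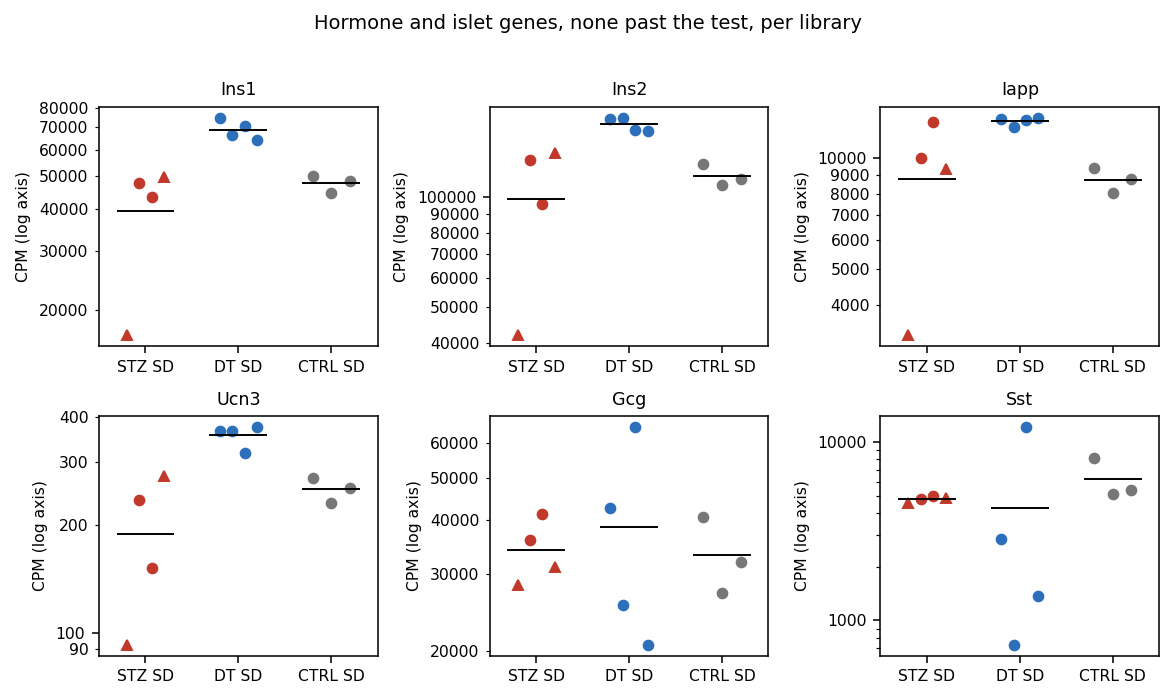
CPM per library on a log axis for 6 islet genes in STZ SD (red), DT SD (blue) and CTRL SD (grey), with lines at group means and triangles for STZ SD replicates 1 and 4. Ins1 stands at 16796 to 49713 CPM in STZ SD and at 64120 to 74649 CPM in DT SD, while Gcg and Sst overlap; none of the 6 passed the test.

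Of the matrix genes of fibroblasts, Fbn1, Efemp1 and Fndc1 were lower in STZ SD than in DT SD. Fbn1, the microfibril protein fibrillin, was at 15.8, 16.3, 15.2 and 9.64 CPM in STZ SD and 67.1, 29.8, 24.0 and 24.2 CPM in DT SD (log2 fold change -1.35, SE 0.36, adjusted p = 0.0433). Efemp1, a fibulin, and Fndc1, a fibronectin-domain protein, fell by 1.39 and 1.49 (adjusted p = 0.0369 and 0.0482). DT SD replicate 1 was the highest library for all of these, at 67.9 CPM for Efemp1 and 28.3 CPM for Fndc1, and the groups did not overlap. Of 16 matrix and elastic fibre genes, a list drawn up after values were seen, these 3 fell and none rose, with a median of -0.48 (-0.38 without replicates 1 and 4, where 0 were called). Over all genes 0.403% were called lower. Against CTRL SD the median of this list was 0.25 in STZ SD and 0.67 in DT SD. Of 14 mesenchymal markers 0 passed, with a median of -0.42 and sums of 507 to 1228 CPM in STZ SD and 826 to 1659 CPM in DT SD.

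The largest fitted fall was in an interferon-induced gene. Ifi44l was at 0 in all 4 STZ SD and all 3 CTRL SD libraries and at 2.95, 3.02, 1.94 and 7.31 CPM in DT SD, at least 64.9-fold lower in STZ SD when 3 counts over the group are taken as the floor (adjusted p = 0.024). Its neighbour in the family, Ifi44, fell by 1.47 (SE 0.36, adjusted p = 0.0367), with 3.02 to 8.72 CPM in STZ SD and 8.50 to 21.8 CPM in DT SD, which overlap. Of the 20 interferon-response genes Ifi44 was the 1 that fell, none rose, and the median was 0.11. Over all genes 0.403% were called lower. Hist1h2bk, an H2B histone gene with near-identical copies and therefore an uncertain count, was at 0 in STZ SD replicates 1, 3 and 4 and at 0.46 CPM in replicate 2, against 3.60 to 5.17 CPM in DT SD (log2 fold change -5.35, adjusted p = 0.0261).

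The remaining large falls were in genes of neurons and other roles. Pianp, a ligand of the paired receptor PILRA, was at 1.14 to 2.84 CPM in STZ SD and at 22.7, 19.0, 30.1 and 3.16 CPM in DT SD (log2 fold change -3.22, SE 0.64, adjusted p = 0.0212). Kcnf1, a potassium channel subunit, and Stk32b, a kinase, fell by 2.18 and 2.14 (adjusted p = 0.0393 and 0.0373). Otoa (otoancorin) fell by 1.77, Prrt3 by 1.62 and Srrm4, a splicing factor of neuronal microexons, by 1.52 (adjusted p = 0.0493, 0.041 and 0.0415), with separate groups in each. Lars2, the mitochondrial leucyl-tRNA synthetase, fell by 1.77 (adjusted p = 0.0497), but its values overlapped, at 73.8 to 227 CPM in STZ SD and 196 to 796 CPM in DT SD.

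Among genes higher in STZ SD were Erdr1 and Gm21887. Erdr1, annotated in the pseudoautosomal region, was at 123, 142, 280 and 110 CPM in STZ SD, 42.0, 67.0, 38.8 and 62.6 CPM in DT SD, and 183, 182 and 219 CPM in CTRL SD. The groups did not overlap, and DT SD was also below CTRL SD (log2 fold change -1.89, SE 0.27, adjusted p = 0.00152). STZ SD exceeded DT SD by 3.11-fold (log2 fold change 1.64, SE 0.26, adjusted p = 0.00618), and by 2.00 on the log2 scale without replicates 1 and 4. Gm21887, a copy of the same region, gave 3.22 (SE 0.47, adjusted p = 0.00473). Reads of the 2 loci can be split between them, so each count is uncertain.

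Of the immediate early genes, the transcription factors and regulators that a stimulated cell induces first, 5 rose in STZ SD. Fos (chromosome 12, 85473890 to 85477273) was at 59.6, 32.4, 14.0 and 37.2 CPM in STZ SD and 11.6, 10.9, 9.18 and 7.75 CPM in DT SD (log2 fold change 1.87, SE 0.38, adjusted p = 0.0228). Junb was at 101, 56.1, 45.4 and 64.8 CPM in STZ SD and 35.6, 31.6, 16.6 and 27.5 CPM in DT SD (log2 fold change 1.27, SE 0.24, adjusted p = 0.0203). In both the groups were separate and STZ SD replicate 1 was highest. Klf4, Zfp36 and Ier2 rose by 1.37, 1.10 and 0.80 (adjusted p = 0.0261, 0.0369 and 0.0428). Of the 14 genes of the list, these 5 rose, none fell, all 14 were above 0, and the median was 0.64 (0.52 without replicates 1 and 4, where 0 were called). Over all genes 2.16% were called higher. Against CTRL SD the list median was 0.52 in STZ SD and -0.29 in DT SD. In STZ SD, Klf4 was at 85.0 and 97.1 CPM in replicates 1 and 4 and at 28.3 and 30.3 CPM in replicates 2 and 3, against 14.99 to 28.02 CPM in DT SD.

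Of the immunoglobulin variable segments, which mark B-lineage cells, 18 were higher in STZ SD than in DT SD. Igkv4-55 (chromosome 6, 69607275 to 69607828) had 109, 253, 93.5 and 156 CPM in STZ SD, 1.97, 11.2, 2.95 and 7.75 CPM in DT SD and 153, 73.3 and 18.1 CPM in CTRL SD. The STZ SD and DT SD libraries were separate (log2 fold change 4.67, SE 0.86, adjusted p = 0.018). Of the 217 segments tested these 18 rose, against 2.16% of all genes, and none fell. Of the segments 190 were above 0, and the median was 2.47. Without replicates 1 and 4 the median was 1.49, 168 were above 0 and 0 were called. The summed level of all segments overlapped, at 9132, 4012, 1778 and 3532 CPM in STZ SD and 6623, 3045, 367 and 2322 CPM in DT SD. Of 13 B-cell markers 0 passed, 13 were above 0 and the median was 0.99, with sums of 2709 to 7742 CPM in STZ SD and 343 to 2570 CPM in DT SD. The 8 MHC class II genes were also all above 0 without a call (median 0.89). Against CTRL SD the B-cell median was 0.01 in STZ SD and -0.99 in DT SD. The MHC class II median against CTRL SD was 0.20 in STZ SD and -0.69 in DT SD. The part of the number of B-lineage cells in these differences was not tested.

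A few further genes rose in STZ SD. Des, the intermediate filament desmin of muscle and pericytes, was at 25.9, 24.8, 14.3 and 14.1 CPM in STZ SD and 9.59, 11.9, 7.75 and 7.96 CPM in DT SD (log2 fold change 1.09, SE 0.30, adjusted p = 0.04998). With Mylk, the myosin light chain kinase (log2 fold change 1.00, adjusted p = 0.0388), it made 2 of 12 smooth muscle and pericyte genes that rose, with none falling and a median of 0.52. Over all genes 2.16% were called higher. Mylk overlapped between the groups, at 33.9 to 82.4 CPM in STZ SD and 21.7 to 36.7 CPM in DT SD, and its log2 fold change without replicates 1 and 4 was 0.40, against 1.07 for Des. Trpm2, a calcium channel opened by oxidative stress, was at 14.0 to 18.0 CPM in STZ SD and 1.77 to 8.05 CPM in DT SD (log2 fold change 1.42, SE 0.37, adjusted p = 0.0388). Rpl10, a ribosomal protein gene with many processed copies and an uncertain count, rose by 1.17 (SE 0.29, adjusted p = 0.0369).

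**Figure D4:**
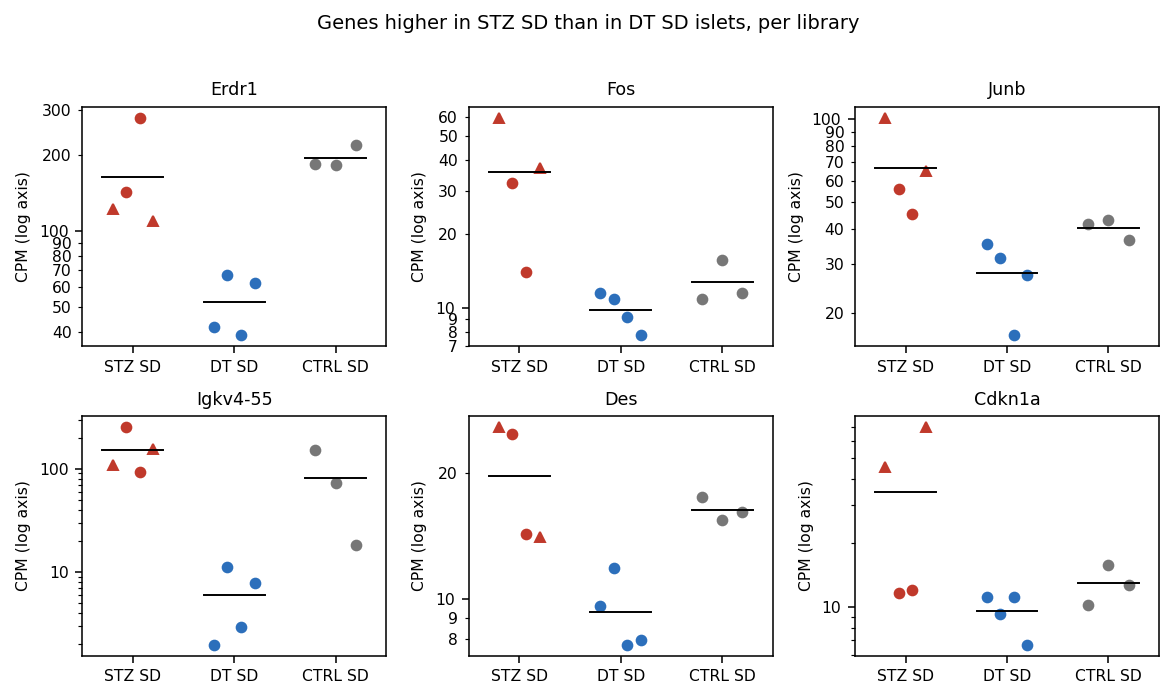
CPM per library on a log axis for 6 genes higher in STZ SD, with STZ SD (red), DT SD (blue) and CTRL SD (grey); lines are group means and triangles are STZ SD replicates 1 and 4. Erdr1 and Igkv4-55 are high in all 4 STZ SD libraries, while Cdkn1a is high in the 2 triangles, at 45.4 and 69.6 CPM, and at 11.7 and 12.04 CPM in replicates 2 and 3.

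The largest rises were in genes of the gut epithelium. With low genes (mean log2 CPM under 1) and predicted genes named Gm left out, the 12 largest were Apoa1, Gsta1, Ugt2b5, Cyp2c65, Ces1g, Slc30a10, Fabp1, Slc5a4b, Cyp4a10, Abcg5, Gsta2 and Sult6b2, genes of lipid handling, transport and detoxification. Apoa1, the apolipoprotein of high-density lipoprotein, was at 1857, 0.18, 5.81 and 3249 CPM in STZ SD and had 1 count in the 4 DT SD libraries (adjusted p = 0.0493). Fabp1, a fatty acid binding protein, was at 1440, 1.20, 2.70 and 3045 CPM in STZ SD and at most 0.72 CPM in DT SD (adjusted p = 0.0384). Both were high in STZ SD replicates 1 and 4 alone. Of the 22 enterocyte markers these 2 rose (2.16% of all genes did) and none fell, but 21 were above 0, with a median of 9.89. Of 15 goblet, Paneth, tuft and enteroendocrine markers 0 passed, but 13 were above 0, with a median of 4.99. The mean log2 CPM of these 15 was 5.19 and 4.81 in STZ SD replicates 1 and 4. It was 0.09 and 0.73 in STZ SD replicates 2 and 3, and 0.05 to 0.36 in DT SD.

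Several metabolic and stress genes were high in those 2 libraries. The list counts that follow stand beside 2.16% of all genes called higher. Of 15 genes of fatty acid oxidation 7 rose and none fell, with a median of 0.86 that became -0.05 without replicates 1 and 4. Acadl, an acyl-CoA dehydrogenase, was at 132, 60.1, 56.8 and 188 CPM in STZ SD and 42.3 to 55.5 CPM in DT SD (log2 fold change 1.12, SE 0.25, adjusted p = 0.0261), and Slc25a20, the carnitine carrier, rose by 1.60 (adjusted p = 0.0239). Of 19 antioxidant genes of the NRF2 pathway 5 rose and none fell, with a median of 0.82 that became -0.11. Cat (catalase) was at 313, 35.2, 50.2 and 552 CPM in STZ SD and 36.2 to 52.97 CPM in DT SD (adjusted p = 0.025), and Gclc, of glutathione synthesis, rose by 1.48 (adjusted p = 0.0261). Ldha, lactate dehydrogenase A, a gene normally kept silent in beta cells, was at 322, 51.0, 70.0 and 493 CPM in STZ SD and 37.2 to 68.8 CPM in DT SD (adjusted p = 0.0393). It was the 1 of 15 glycolysis genes that rose, and the median became -0.23, against 0.61 with all libraries. Khk (fructokinase) rose by 3.27 (adjusted p = 0.032) as 1 of 4 of 12 carbohydrate-response genes. Cox4i1, a subunit of cytochrome c oxidase and the 1 of 18 oxidative phosphorylation genes that rose, differed from these. It was at 297, 164, 261 and 281 CPM in STZ SD and 139 to 158 CPM in DT SD (log2 fold change 0.77, adjusted p = 0.0372), and the value was 0.53 without replicates 1 and 4.

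Cdkn1a, the cell-cycle inhibitor p21 and a target of p53, belonged to the same pattern. It was at 45.4, 11.7, 12.04 and 69.6 CPM in STZ SD and 11.1, 9.27, 11.1 and 6.67 CPM in DT SD (log2 fold change 1.87, SE 0.45, adjusted p = 0.0324). The groups did not overlap, but replicates 2 and 3 lay within 1 CPM of the highest DT SD value, and the log2 fold change without replicates 1 and 4 was 0.31. Cdkn1a was the 1 of 20 p53 targets that rose, none fell, and the median was 0.23 (0.20 without them). Over all genes 2.16% were called higher.

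**Figure D5:**
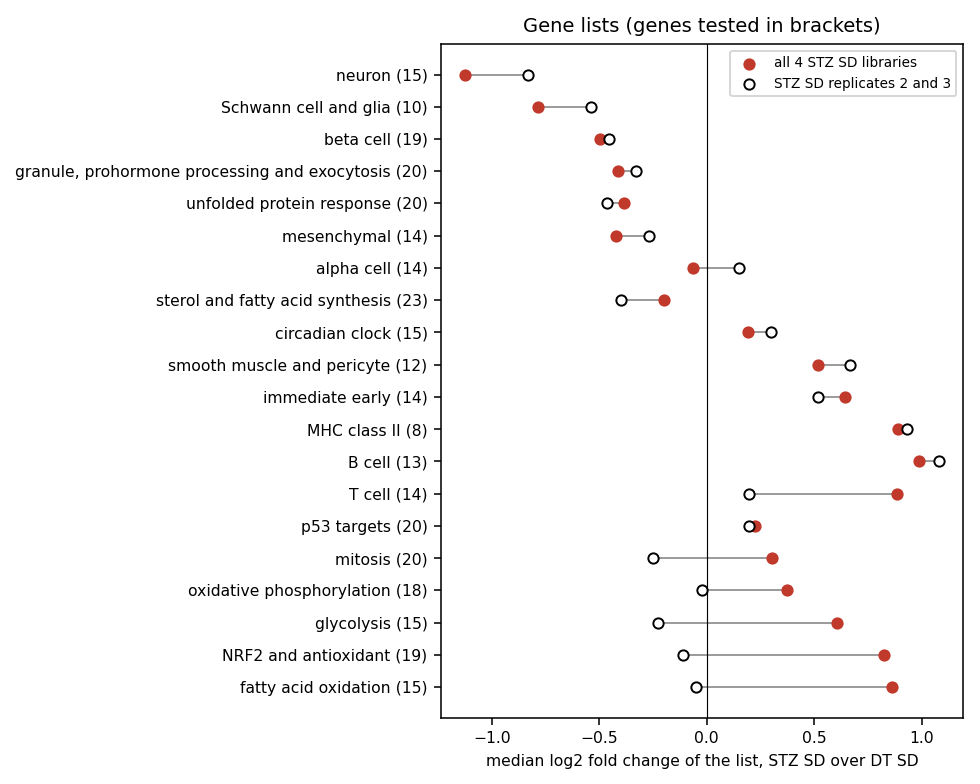
Median log2 fold change of STZ SD over DT SD for 20 gene lists, with all 4 STZ SD libraries (red) and with STZ SD replicates 2 and 3 (open), numbers of genes tested in brackets. Neuron, beta-cell and unfolded protein response lists stay below 0 and immediate early, MHC class II and B-cell lists above 0 in both, while glycolysis, NRF2 and fatty acid oxidation lists are above 0 with all libraries alone.

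Set against untreated islets, few genes passed for either toxin. STZ SD and CTRL SD differed in 1 gene (0.00568%), Rps2, a ribosomal protein gene with many processed copies (log2 fold change 1.83, SE 0.31, adjusted p = 0.0377). DT SD and CTRL SD differed in 6 genes (0.0341%), Erdr1 and Gm21887 described above, Arntl, Nab2, Hbp1 and Ighj1. Arntl, which encodes the clock factor BMAL1, was at 9.59, 7.35, 11.1 and 15.7 CPM in STZ SD, 8.77, 5.89, 8.67 and 10.3 CPM in DT SD and 23.2, 19.3 and 24.7 CPM in CTRL SD. Both toxin groups lay below CTRL SD, significantly for DT SD (log2 fold change -1.41, SE 0.20, adjusted p = 0.00152), and Arntl did not pass between STZ SD and DT SD (log2 fold change 0.38, SE 0.19, adjusted p = 0.265). The 2 comparisons share the CTRL SD libraries.

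On HFD, where the libraries are others, STZ HFD and DT HFD differed in 60 genes (0.341%), of which 15 were higher in STZ HFD. Of the 71 genes lower in STZ SD 41 were below 0 on HFD and 1 passed there in the same direction, Dzip3. Of the 380 genes higher in STZ SD 163 were above 0 on HFD and 1 passed there in the same direction. No share over all genes is given beside these counts, so whether they differ from it cannot be said. DT HFD replicate 1 held gut genes, with Apoa1 at 279 CPM and Fabp1 at 320 CPM. The other DT HFD libraries had 0.199 and 2.01 CPM of Apoa1 and 1.79 and 1.52 CPM of Fabp1. The part of that library in the signs on HFD was not tested. Vip was at 33.3, 14.9, 13.8 and 15.5 CPM in STZ HFD and 25.4, 14.7 and 27.98 CPM in DT HFD (log2 fold change -0.22), yet the test of the difference between diets did not pass for it (adjusted p = 0.0843). Fos was at 16.1, 25.8, 29.3 and 26.3 CPM in STZ HFD and 8.24, 13.8 and 7.00 CPM in DT HFD (log2 fold change 1.34). That test passed for 1 gene (0.00568%), Ighv5-9, with 3607 genes at an unadjusted p below 0.05. The immunoglobulin segment Ighv5-9 was at 14.3, 4.23, 3.32 and 18.0 CPM in STZ SD, 0.082, 0.22, 0.51 and 1.15 CPM in DT SD, 1.60, 0.80, 0.58 and 0 CPM in STZ HFD and 7.00, 21.9 and 321 CPM in DT HFD. The difference between diets was 11.4 on the log2 scale (SE 1.86, adjusted p = 0.0293), with DT HFD replicate 3 far above all other libraries.

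Without STZ SD replicates 1 and 4, the genes past the threshold were partly others. The 6 lower in STZ SD were Nceh1, Gdap2, Slc26a1, Snrnp35, Kpna2 and Cul4b, and the 6 higher were Use1, Pisd-ps1, Unc119, Cbx7, Gm21887 and Erdr1. Of these 12, 5 of the higher and 2 of the lower were also called with all libraries. Kpna2, an importin of the nuclear pore pathway, was at 11.9 and 7.06 CPM in replicates 2 and 3 of STZ SD, 41.1 and 48.9 CPM in replicates 1 and 4, and 42.7 to 60.7 CPM in DT SD (log2 fold change -2.45 without replicates 1 and 4).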

How the data were processed

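Bulk RNA-seq counts of mouse islets were analysed. RNA came from the RNeasy Mini kit and libraries from a stranded QIAseq mRNA kit, per the labels' protocols. The build is mm10, per the submitters' processing notes, while aligner, counter, strand setting and annotation were not stated in the labels or headers, so genes that overlap on opposite strands may share reads. All tests used the total counts per gene and library of the deposited table, which carry no normalization. The authors' RPKM and TPM values in the same table were not used. A further deposited column is headed CPM but does not sum to 1000000 per library, so it was treated as a score of unexplained scaling and not used. Columns carry the number that each sample has in its description, and 0 columns matched no sample. Of 48709 genes, 48349 identifiers (99.26%) were found in GENCODE M21 on GRCm38 (mm10), which gave coordinates.

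The labels put 33 libraries in groups, and the remaining one, titled CTRL HFD but with the treatment label DT, entered no comparison. Replicates differed by more than counting noise (smallest chi-square per degree of freedom 35.65). Low genes were removed with filterByExpr (count minimum 10, total minimum 15) in edgeR 4.0.16 under R 4.3.3. After TMM scaling, a robust quasi-likelihood model of all 33 libraries, with group as its only factor, gave contrasts with Benjamini-Hochberg adjustment over 17616 genes. All groups share that estimate of spread (prior degrees of freedom 1.63 to 3.11). SE is on the log2 scale, and intervals cover counting error only.

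The members, the 51 gene lists and the tests were chosen with earlier results of these data known, and 3 more lists after the values were seen. The naming rule takes 12 islet and cell-cycle genes, the called genes that changed most (12 up, 12 down, mean log2 CPM from 1 upward, without Gm, Rik, -ps and mt- symbols), the 2 called members of each list with the smallest adjusted p, and up to 6 genes of the test between diets. Not every gene it names is reported. Genes outside it, among them those of the 3 added lists, Erdr1, Gm21887, Igkv4-55, Trpm2, Rpl10, Hspa5, Srrm4 and those named for the other contrasts, were chosen after their values were seen. The labels state no pairing by replicate number, so the comparison has no block. The fit was run on simulated counts in which STZ SD had the levels of DT SD apart from set changes. Those counts held no gut RNA in single STZ SD libraries, so that run does not cover the libraries that hold it. Promoters came from the RefSeq table on GRCm38.p6. Other settings were DESeq2 1.42.0 size factors and its Wald test, the low-count filter dropped or made stricter (1 CPM in 3 libraries and 50 counts), hormone genes left out before scaling, the 2 groups alone, the replicate block, enterocyte or acinar score as a covariate, the enterocyte libraries left out, and each library left out in turn.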

Additional observations from a re-analysis of the deposited data

Results flagged for a closer look

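Single libraries far from the other 3 of their group were looked for in each described gene, over 166 pairs of gene and group, where chance alone marks about 1 in 20 groups. Among genes of the islet, DT SD replicate 3 was apart for Ppy (7798 CPM, with the other 3 at 29.5 to 187), for Ucn3 (317 CPM, with the others at 366 to 375) and for Npy (29.1 CPM, with the others at 55.3 to 60.2). STZ SD replicate 1 was apart for Mki67 (64.8 CPM), Fkbp2 (66.4 CPM) and Adcyap1 (0.142 CPM, the others at 0). STZ SD replicate 4 was apart for Calr (836 CPM) and Fbn1 (9.64 CPM), and DT SD replicate 1 for Fbn1 (67.1 CPM). STZ SD replicate 2 was apart for Hist1h2bk (0.460 CPM) and STZ SD replicate 3 for Prrt3 (0.727 CPM).

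In genes of the gut epithelium the library apart had counts where the other 3 DT SD libraries were at 0. This held for DT SD replicate 3 in Apoa1 (0.0842 CPM) and Gsta1 (0.589 CPM), for DT SD replicate 4 in Cyp2c65 (0.0717 CPM), Slc5a4b (0.0717 CPM), Gsta2 (0.0717 CPM) and Abcg5 (0.215 CPM), and for DT SD replicate 2 in Cyp4a10 (0.0719 CPM).

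The immunoglobulin segment Ighv5-9 differed between diets in the size of STZ minus DT, by 11.43 on the log2 scale (edgeR, adjusted p = 0.0293). The highest library was DT HFD replicate 3, at 321 CPM. The test between diets called 0 genes without that library, and likewise without STZ SD replicate 1 or 4, DT SD replicate 1, 2 or 3, or STZ HFD replicate 1 or 4, each left out alone.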

How the results depend on the processing

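Counts of calls moved widely with the libraries and the samples that set the spread. The comparison of STZ SD with DT SD gave 451 calls (380 higher, 71 lower) and the test between diets gave 1. DESeq2 size factors, a stricter filter and hormone genes left out before scaling kept the first 3 counts within 1.5 times, and the stricter filter gave 2 for the test between diets. No low-count filter gave 119 (93 higher, 26 lower) and 0 between diets. The DESeq2 Wald test gave 1340 (1087 higher, 253 lower) and 849 between diets. Fitting the compared groups alone gave 0 (0 higher, 0 lower) and 0 between diets, with 2831 genes at an unadjusted p below 0.05. Leaving out the enterocyte libraries gave 12 (6 higher, 6 lower) and 0 between diets. The enterocyte score as a covariate gave 3 (3 higher, 0 lower) and 0 between diets, and the acinar score 45 (29 higher, 16 lower). Leaving out 1 library gave 4 to 1254 calls, 2 to 1085 higher and 2 to 169 lower, and 0 to 530 between diets, the most without STZ SD replicate 2. The causes of these shifts were not tested.

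With the replicate block in a fit of the compared groups alone, 0 genes were called (0 higher, 0 lower; 1343 at an unadjusted p below 0.05), and 27 between diets. Same-numbered libraries of STZ SD and DT SD correlated in their deviations at -0.178 to 0.004, and those with unlike numbers at -0.275 to 0.229. Whether same-numbered libraries shared a preparation was not tested.

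Without the enterocyte libraries these log2 fold changes reversed: Gcg 0.0005, Mki67 -0.48, Hbegf -0.41, Slc5a4b -1.66, Ehhadh -0.44, Cat -0.11 and Tkfc -0.10. With the enterocyte score Mafa was 0.16, Gcg 0.026, Sst -0.083, Hbegf -0.049 and Slc5a4b -0.55, and with the acinar score Hbegf was -0.0037. Leaving out 1 library gave ranges across 0 for Mafa (-0.47 to 0.16), Slc2a2 (-0.54 to 0.23), Gcg (-0.38 to 0.21), Sst (-0.18 to 1.53), Mki67 (-0.58 to 0.50) and Hbegf (-0.14 to 0.58). Over all described genes and settings, 729 values kept direction and call, 700 kept direction but not the call, 6 gained a call and 26 reversed. At 12246402 counts or more per library, genes under 1 CPM rest on few reads.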

Other observations

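Ifi44l, Hist1h2bk and Vip, chosen after their values were seen, are given for the other groups of the series as values without a test. Ifi44l had counts in 14 of the 15 DT libraries. It was at 9.54 to 14.3 CPM 5 days after DT, 0 to 1.55 CPM at 30 days, 1.94 to 7.31 CPM in DT SD and 2.88 to 3.04 CPM in DT HFD. In the 10 untreated libraries of the groups it was at 0 apart from 0.116 CPM in 1, and among STZ libraries only STZ HFD replicate 1 was above 0.145 CPM, at 2.54 CPM. Hist1h2bk had 1.13 to 8.83 CPM in all 15 DT libraries, 2.16 CPM in STZ HFD replicate 1, at most 0.460 CPM in the other STZ libraries and at most 0.240 CPM in untreated ones. STZ HFD replicate 1 was also apart in Hbegf, at 408 CPM against 5.62 to 14.9 CPM in the other STZ HFD libraries. What sets that library apart was not tested.

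Vip was at 80.6 to 429 CPM 5 days after DT and at 120 to 529 CPM at 30 days, against 17.6 to 39.0 CPM in the untreated libraries with no diet in their labels. In DT HFD it was at 14.7 to 27.98 CPM. In CTRL HFD it was at 8.73 to 18.7 CPM.

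Several lists held no call between STZ SD and DT SD. Of 18 macrophage genes 15 were above 0, with a median of 0.33, and of 14 T-cell genes 14 were, with a median of 0.89 (0.19 without STZ SD replicates 1 and 4). Against CTRL SD the T-cell median was -0.43 in STZ SD and -1.31 in DT SD. Of 15 clock genes 12 were above 0 (median 0.19). Of 23 genes of sterol and fatty acid synthesis 16 were below 0 (median -0.20), and all 6 erythroid genes were (median -1.19).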
